A study of Rattus norvegicus with 6 samples.

Results

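The response of a rat mast cell line to curdlan was read from 4 of the 6 arrays of the study, over all probe sets. RBL-2H3 is a rat basophilic leukaemia line that serves as a mast cell model, and in every group it overexpressed wild-type Dectin-1. The 2 control arrays came from cells given no stimulus and the 2 curdlan arrays from cells stimulated with curdlan. The other 2 arrays, from cells pretreated with R406 before curdlan, entered the fit only to share its estimate of the spread, and their values are set beside the others where they help. There were no cells without the introduced receptor among the groups, so a response to curdlan through other receptors cannot be told apart from one through Dectin-1. The sources used here give no dose of curdlan, no time of stimulation, and no word on whether the Dectin-1 cells were 1 clone. Nothing in the labels tells whether replicate arrays stem from different cultures. Their p-values measure only array-to-array spread, which may be technical.

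Dectin-1, the product of Clec7a, is a C-type lectin-like receptor of innate immune cells that binds the beta-glucans of fungal walls, and curdlan is a particulate beta-glucan. When particles cluster it, the motif in its tail is phosphorylated and recruits the kinase Syk, from which signals run through CARD9 to NF-kB, through calcium and calcineurin to NFAT, and through the MAP kinases. Mast cells answer many stimuli of this kind with release of stored granules and with new transcription of cytokines. R406 is an inhibitor of Syk.

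Signals are on the log2 scale of the deposited table, changes are the curdlan mean minus the control mean given with the fit's standard error (SE), and a gene was called when its Benjamini-Hochberg adjusted p from limma was under 0.05 over all 29214 probe sets. The arrays' medians lay between 7.204 and 7.241, and the median change of all named genes was -0.02. The labelled cell type was checked against its markers. Of 7 measured mast cell markers, 6 had control signals above the median of all probe sets, among them Kit, the receptor for stem cell factor, at 12.71, Ms4a2, the beta chain of the IgE receptor, at 13.51 and Cpa3, a granule carboxypeptidase, at 13.50. Tph1, the enzyme that starts serotonin synthesis, was the low one at 6.41. Of 13 macrophage and neutrophil markers 2 were above that median, of 6 lymphocyte markers 1 (Nkg7, a granule protein of cytotoxic lymphocytes, with a signal of 13.81 in control and 13.79 in curdlan arrays), and of 9 fibroblast and epithelial markers 4. The summed levels of the mast cell markers were 15.76 and 15.76 in control and 15.79 and 15.82 in curdlan arrays. In bulk RNA a change in the share of cells that responded and a change in RNA per cell cannot be told apart.

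The receptor's own gene and its first signalling partners were not called. Clec7a had signals of 7.20 and 6.94 in control and 7.21 and 7.23 in curdlan arrays, a change of 0.15 ± 0.0931 (adjusted p = 0.556). The sources used here do not name the species of the introduced Dectin-1, so it is unknown if this probe set reads its transcript. Syk gave 9.17 and 9.12 in control and 9.01 and 9.03 in curdlan arrays (adjusted p = 0.31), and Card9, the adaptor between Syk and NF-kB, gave 7.59 and 7.52 against 7.58 and 7.34 (adjusted p = 0.726). None of 24 measured genes for Dectin-1 and ITAM signalling was called by limma, with a median change of 0.004. At an unadjusted p under 0.05, 4 lay above 0 and 2 below. With a variance prior that follows the signal level and is also robust to outlying variances, 3 were called raised. None of 21 genes for calcineurin and NFAT was called by limma either, with a median change of -0.007, and 4 above 0 and 2 below had an unadjusted p under 0.05. With that prior 2 of the 21 were called raised.

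Of 14506 named genes, each read by its brightest probe set, 309 were called, which is 2.13% of those tested. There were 206 raised genes (1.42%) and 103 lowered genes (0.71%). In all 309 both curdlan arrays lay on 1 side of both control arrays. Most changes were small. Among the raised genes 36 changed at least 2-fold, 56 between 1.5 and 2-fold and 114 by less, and among the lowered genes these numbers were 12, 31 and 60. The usual themes of such a response were held in 3 short lists: interleukins and growth factors, chemokines, and immediate early genes. Those 3 lists had 7 raised of 27 measured, 2 raised of 24, and 12 raised with 2 lowered of 27. The shares called were 25.9%, 8.3% and 51.9%, against 2.13% of all named genes. In none of these 3 lists were 185 raised and 101 lowered genes, a remainder that depends on how the lists were drawn up. The calls came mainly from genes with a control signal above the median of named genes, 7.84. When genes were ranked by control signal into 4 bins of 3626 or 3627, the bin just above that median held 128 raised and 60 lowered genes, the brightest 53 and 39, and the dimmest 7 and 0.

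**Figure D1:**
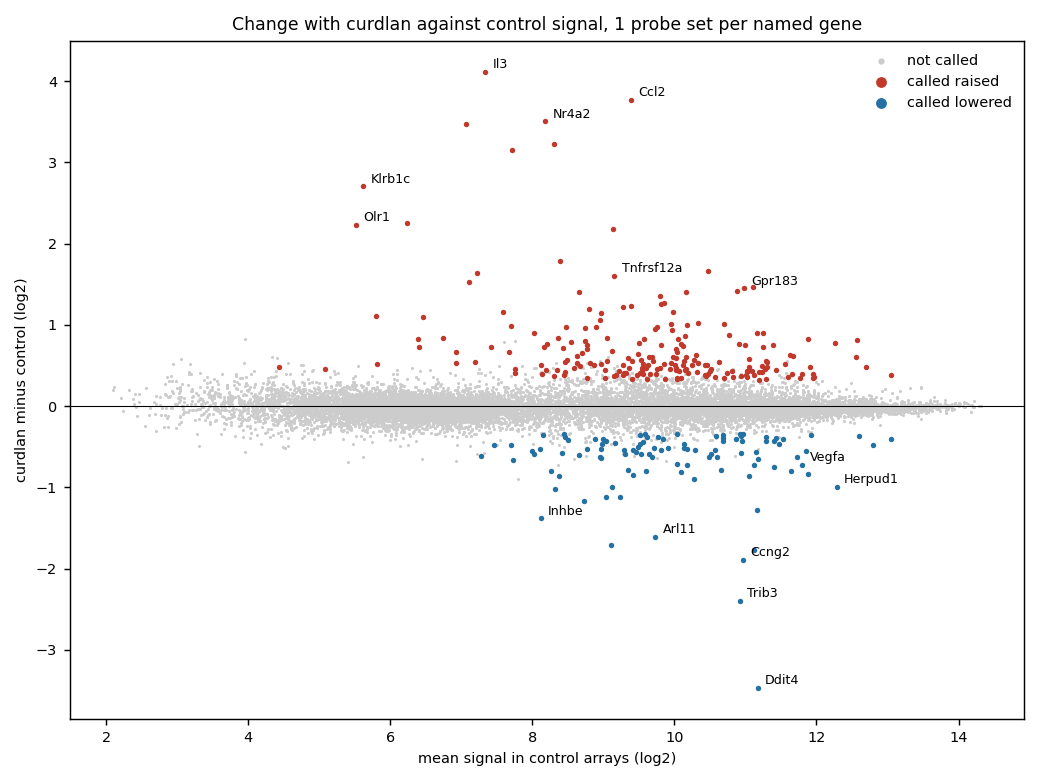
Change with curdlan (curdlan mean minus control mean, log2) against the mean control signal (log2), 1 point per named gene; red points were called raised and blue points called lowered by limma. Ddit4, at a control signal near 11, lies lowest, and Il3, which rose 17.4-fold, lies highest; called points are few below a control signal of 7.84.

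Calls at this size of experiment depended on the number of arrays, and each fit without 1 array also had fewer degrees of freedom. Leaving out either R406 array gave the same fit, because the other one then adds nothing to the spread. The 6 fits without 1 array are therefore not all different. With any 1 array left out, between 32 and 68 probe sets were called in place of 465, and 160 raised and 85 lowered genes were then called in none of the 6 such fits. There were 23 genes called in all 6. The 6 lowered ones were Ddit4, Trib3, Ccng2, Chac1, Arl11 and Herpud1. Of the 17 raised ones, 7 lay outside the usual lists: Klrb1c, Cish, Nfkbiz, Tnfrsf12a, Gpr183, Csrnp1 and Dusp5. The direction of all 309 genes was the same in every alternative compared. Apart from new scalings of the arrays, no alternative could have reversed it, since both curdlan arrays lay on 1 side of both control arrays. Genes described below as having risen or fallen were called with all 6 arrays, and for most gene lists the number of calls made with 1 array left out is given beside them.

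The deepest fall among all genes belonged to regulators of the integrated stress response. In this pathway, kinases that sense lack of amino acids, unfolded protein in the endoplasmic reticulum (ER) or other stress phosphorylate the initiation factor eIF2, and the factor ATF4 is then translated and raises its target genes. Of 22 measured regulators 6 fell and 0 rose, with a median change of -0.039 against -0.02 for all named genes. Their changes ranged from -3.47 to 0.56. At an unadjusted p under 0.05 by limma, 1 lay above 0 and 9 below. With a robust variance prior that follows the signal level, 1 was called raised and 7 lowered. Ddit4, whose product REDD1 restrains the growth kinase complex mTORC1, had signals of 11.13 and 11.23 in control and 7.83 and 7.59 in curdlan arrays. Its change was -3.47 ± 0.0911, an 11-fold fall (adjusted p = 0.000676), and no other named gene fell as far. Trib3, a pseudokinase that ATF4 induces and that binds it, went from 10.98 and 10.86 to 8.48 and 8.57, a 5.27-fold fall. Chac1, which breaks down glutathione, went from 11.06 and 11.18 to 9.28 and 9.42, a 3.41-fold fall.

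The remaining members that fell include the pathway's central factors. Atf4 itself gave 11.95 and 11.81 in control and 11.07 and 11.02 in curdlan arrays, a 1.78-fold fall (adjusted p = 0.0131). Ddit3, which encodes the factor CHOP, gave 9.27 and 9.18 against 8.03 and 8.19, and fell 2.17-fold. Inhbe, which encodes an activin chain and is induced by ER stress, gave 8.31 and 7.93 against 6.79 and 6.69, and fell 2.6-fold. The control arrays of Inhbe lay further apart than those of the other called members of this list, and the SE of its change was 0.131. Atf3, another target of ATF4, was counted in the list of immediate early genes. It fell 3.26-fold, from 9.30 and 8.91 to 7.46 and 7.33, while most called genes of its early-gene list rose. The control arrays of Atf3 also lay wide apart, and the SE of its change was 0.135. Leaving out 1 array kept between 3 and 4 of the 6 calls. Atf4 was called in none of those fits.

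Few genes of the pathway's downstream branches were called. Herpud1, which acts in ER-associated degradation, was the only called gene of 22 ER chaperones and degradation factors. It gave 12.31 and 12.26 in control and 11.29 and 11.30 in curdlan arrays, a 1.99-fold fall (adjusted p = 0.00309). Dnajb9, an ER co-chaperone, had a change of -0.50 ± 0.0741 (adjusted p = 0.0549). Among 26 genes for amino acid synthesis and transport, the neutral amino acid transporter genes Slc1a4 and Slc38a2 fell 1.47-fold and 1.33-fold, while the glutamine transporter gene Slc1a5 rose 1.3-fold, and with 1 array left out none of the 3 was called. No gene of 18 aminoacyl-tRNA synthetases, which load tRNAs and are ATF4 targets in part, was called by limma, and 4, all below 0, had an unadjusted p under 0.05. With a robust variance prior that follows the signal level, 3 were called lowered. The median change of the 18 was -0.056, and 2 of 18 (11.1%) lay above 0 against 41.6% of all named genes. Aars1 and Cars1, for alanine and cysteine, had the largest changes in that list at -0.20 each.

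Promoters of these genes were searched for the amino acid response element, the site that ATF4 binds together with a partner, spelled TGATGNAA on either strand, in the 250 bases before the start in RefSeq's GRCr8 table. It was found in 3 of the 6 stress regulators that fell (Trib3, Chac1 and Inhbe) and in Herpud1. Among all called genes it was in 8 of 87 lowered promoters (9.2%) and 3 of 169 raised ones (1.78%), against 3.27% of 27457 promoters. A match is a string of letters and does not show binding. Here and below, the set of all promoters was not limited to genes on the array or matched for signal. Called genes lay mainly above the median control signal, so the shares compare unlike sets. The 4 stretches are shown because they carry the letters shared by genes that fell, with the match in capitals; it begins 21, 167, 228 and 184 bases before the start in the order given.
Trib3, chr3:161275534-161275633, minus strand: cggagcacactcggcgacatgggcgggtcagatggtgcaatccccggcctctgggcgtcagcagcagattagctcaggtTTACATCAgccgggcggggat
Chac1, chr3:126795921-126796020, plus strand: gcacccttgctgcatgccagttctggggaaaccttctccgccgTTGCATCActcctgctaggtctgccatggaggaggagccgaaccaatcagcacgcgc
Inhbe, chr7:65064670-65064769, minus strand: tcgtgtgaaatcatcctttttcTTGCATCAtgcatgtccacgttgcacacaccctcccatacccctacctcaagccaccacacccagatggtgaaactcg
Herpud1, chr19:10614838-10614937, minus strand: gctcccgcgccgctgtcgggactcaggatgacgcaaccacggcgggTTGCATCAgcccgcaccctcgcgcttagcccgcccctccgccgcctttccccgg

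In the list of FOXO targets and growth arrest, 2 of 26 genes fell and 1 rose. Ccng2, an unusual cyclin that FOXO factors induce in resting cells, gave 10.88 and 11.04 in control and 9.08 and 9.07 in curdlan arrays. It fell 3.7-fold (adjusted p = 0.00165). Pik3ip1, an inhibitor of phosphoinositide 3-kinase, gave 8.27 and 8.27 against 7.42 and 7.50, a 1.75-fold fall. Foxo1 itself rose 1.55-fold, from 10.25 and 10.35 to 10.92 and 10.95. The median change of the list was -0.075. With 1 array left out, 1 or 2 of the falls were still called, and Ccng2 was called each time. From other lists, Btg1, an antiproliferative partner of mRNA deadenylases, fell 1.38-fold, and the survival gene Bcl2 fell 1.34-fold. Neither was called with 1 array left out.

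In the hypoxia-inducible factor pathway 3 of 21 genes fell and 0 rose, with a median change of -0.12. Vegfa, the endothelial growth factor, gave 11.80 and 11.81 in control and 11.08 and 11.09 in curdlan arrays, a 1.65-fold fall with almost no spread in either group (adjusted p = 0.00591). Adm, which encodes the vasodilator adrenomedullin, gave 10.93 and 11.41 against 9.91 and 9.89, a 2.42-fold fall whose control arrays lay wide apart (adjusted p = 0.0408). Kdm4b, a histone demethylase, fell 1.42-fold. Between 0 and 1 of these 3 calls were made with 1 array left out. Of 24 genes of glycolysis and the pentose phosphate pathway, Pfkfb3, which makes an activator of glycolysis, rose 1.38-fold and none fell, and with 1 array left out Pfkfb3 was not called. Of all 24 members, 3 (12.5%) had a change above 0.

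Lowered genes outside any of these groups had varied roles. Arl11, a small GTPase of the Arf-like family, gave 9.75 and 9.72 in control and 8.05 and 8.20 in curdlan arrays, a 3.05-fold fall. Abhd18, a member of the alpha/beta hydrolase family, went from 9.05 and 9.04 to 7.87 and 7.98. Map3k1, a kinase upstream of JNK, fell 1.73-fold, Pde4b, a cyclic AMP phosphodiesterase, 1.81-fold, and Cdc42ep3, an effector of Cdc42, 1.8-fold. Otub2, a deubiquitinase, fell 1.73-fold and Pex26, a peroxisome assembly factor, 1.76-fold. The zinc-finger gene Zfp292 fell 1.81-fold on its brightest probe set, and its other 2 probe sets were called as well, at -0.87 and -0.78. Pnrc1, a nuclear receptor coactivator, Banp, a DNA-binding protein, Tmem106a, Actrt3 and Zfp786 completed the 30 lowered genes of largest change, at 1.58-fold to 1.74-fold. Arl11 was the only gene of this paragraph called with each array left out, and Abhd18 was called in 5 of those 6 fits.

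**Figure D2:**
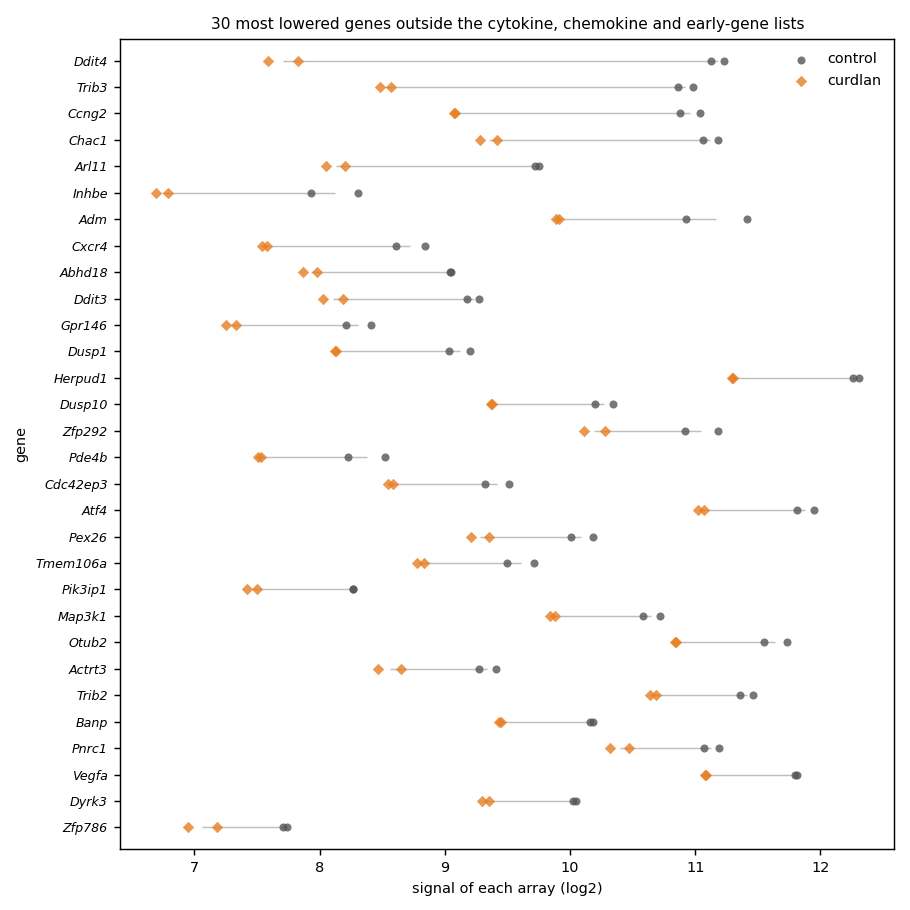
Signal of each array (log2) for the 30 called genes outside the usual lists that fell most, with control arrays as grey circles, curdlan arrays as orange diamonds and a line between the group means. Both curdlan arrays lie below both control arrays in every row, as the choice of genes required. Ddit4, from 11.13 and 11.23 to 7.83 and 7.59, spans the longest distance.

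The strongest rises outside the usual lists were in C-type lectin-like receptors, the family to which Dectin-1 belongs. Of 26 measured genes 5 rose and 0 fell, with a median change of 0.097. Klrb1c, which encodes an NKR-P1 receptor known from natural killer cells, gave 5.56 and 5.68 in control and 8.29 and 8.36 in curdlan arrays, a 6.52-fold rise (adjusted p = 0.00109). Olr1, which encodes the scavenger receptor LOX-1 for oxidised lipoprotein, went from 5.46 and 5.58 to 7.60 and 7.92, a 4.7-fold rise. Both had signals below the array medians in control cells and above them in curdlan cells. Klrk1, which encodes the activating receptor NKG2D, started higher, at 9.50 and 9.29, and reached 10.63 and 10.62, a 2.35-fold rise. Cd72, an inhibitory lectin-like receptor best known from B cells, rose 1.93-fold, from 9.78 and 9.67 to 10.66 and 10.68. Klrb1, a close relative of Klrb1c, rose 1.43-fold, from 5.74 and 5.88 to 6.35 and 6.30. Because relatives can share probes, the values of Klrb1 and Klrb1c are uncertain as to which copy they read. Between 2 and 4 of the 5 calls were made with 1 array left out, and Klrb1c was called each time.

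All of these but Cd72 lie in 1 stretch of rat chromosome 4, the natural killer gene complex, at chr4:164068249-164778453 in GRCr8. The stretch was bounded by Klrb1c and Klrk1, both chosen because they rose, so its count is a description. It held 17 measured genes, of which 4 rose and 0 fell, with a median change of 0.147. Klrb1c and Klrb1 are direct neighbours, whereas Olr1 and Klrk1 lie apart from them and from each other. Between Klrb1 and Olr1 lie 9 measured genes, Clec7a among them as the direct measured neighbour of Olr1, and none of the 9 was called. Cd69, an activation marker of leukocytes in that interval, had a change of 0.12 ± 0.113 (adjusted p = 0.713). Clec12b, an inhibitory receptor there, had a change of 0.54 ± 0.105 (adjusted p = 0.098) at a low control signal of 4.57.

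**Figure D3:**
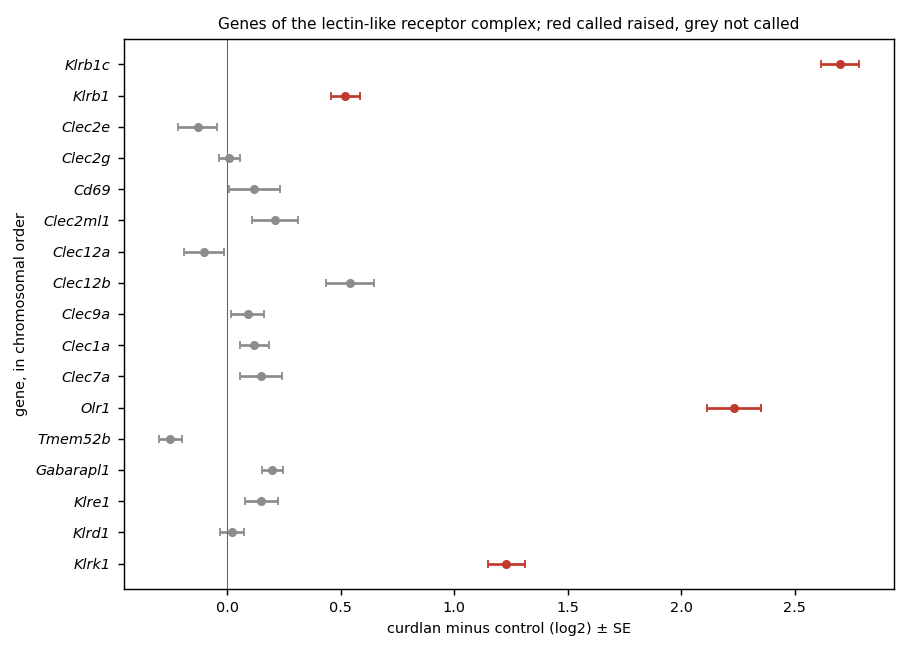
Change with curdlan (log2) with its standard error for the 17 measured genes of the lectin-like receptor complex, in chromosomal order from Klrb1c to Klrk1; red genes were called raised and grey genes were not called. Klrb1c, Olr1 and Klrk1 stand apart at 2.70, 2.23 and 1.23, and Clec7a lies at 0.15.

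Receptor genes outside the lectin-like family changed in both directions. Of 41 G protein-coupled receptors 6 rose and 2 fell, with a median change of -0.019. Gpr183, the oxysterol receptor EBI2 that guides migrating leukocytes, gave 10.97 and 10.98 in control and 12.46 and 12.40 in curdlan arrays, a 2.74-fold rise. Gpr171, a neuropeptide receptor, rose 2.03-fold, from 10.40 and 10.28 to 11.36 and 11.35. Adora2a, the adenosine receptor that raises cyclic AMP, rose 2.01-fold, from 10.20 and 10.16 to 11.17 and 11.20. S1pr2, a receptor for sphingosine 1-phosphate, rose 1.66-fold. The chemokine receptor gene Cxcr4 fell 2.24-fold, from 8.61 and 8.84 to 7.58 and 7.54, and Gpr146 fell 2.03-fold. Leaving out 1 array kept 1 to 3 of the 6 rises and 0 to 1 of the falls, with Gpr183 called each time.

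Tnfrsf12a, which encodes Fn14, the receptor of the cytokine TWEAK, gave 9.23 and 9.08 in control and 10.78 and 10.74 in curdlan arrays. Its rise was 3.04-fold (adjusted p = 0.00215), and it was called with each array left out. Tnfsf9, the ligand 4-1BBL, rose 1.43-fold, and these were the 2 called genes of 25 in the TNF and TNF receptor families. Plaur, the urokinase receptor that focuses proteolysis at the cell surface, rose 1.82-fold, from 10.18 and 10.10 to 11.04 and 10.97, while Plau, urokinase itself, had a change of 0.37 ± 0.0872 (adjusted p = 0.144). Among 31 cytokine receptors Il4r rose 1.42-fold and Il9r fell 1.51-fold. Siglec5, a sialic acid-binding inhibitory receptor, rose 1.44-fold. Of these, Tnfrsf12a and Plaur were called in at least 1 fit with an array left out.

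A few feedback inhibitors of cytokine receptors and of NF-kB were among the raised genes. Cish, an SH2 protein that STAT5 induces and that dampens cytokine receptors, gave 9.16 and 9.11 in control and 11.35 and 11.28 in curdlan arrays, a 4.54-fold rise. Socs1, its relative that blocks JAK kinases, went from 11.20 and 11.00 to 12.60 and 12.52, a 2.75-fold rise, and Socs3 rose 1.58-fold from 7.59 and 7.74. These were the 3 called genes of 19 in that list, whose median change was 0.038. Of 15 NF-kB subunits, inhibitors and feedback genes 3 rose and 0 fell. Nfkbiz, a nuclear cofactor of NF-kB, gave 8.41 and 8.36 against 10.12 and 10.23, a 3.45-fold rise. Nfkbia, the inhibitor that NF-kB itself induces, gave 10.13 and 10.12 against 10.86 and 10.87, and rose 1.67-fold. Icam1, an adhesion molecule, rose 1.49-fold. The median of the NF-kB list was 0.018, and it was -0.003 after quantile normalization. Between 1 and 2 calls of each list were made with 1 array left out.

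The promoters of these genes were searched for the STAT site spelled TTCNNNGAA and for an NF-kB site spelled GGGNNTTTC, each on both strands. The STAT letters were in 17 of 169 raised promoters (10.1%) and 2 of 87 lowered ones (2.3%), against 7.52% of all, and the NF-kB letters in 4.73% and 3.45%, against 3.68%. Cish held 4 STAT matches, and Klrb1c, the most raised gene outside the usual lists, held 2. Socs3 held no STAT match and Icam1 no NF-kB match, and a match does not show binding. Stretches with matches in capitals, from GRCr8, are shown for 5 genes chosen because they rose and held a match.
Cish, chr8:116850724-116850863, plus strand: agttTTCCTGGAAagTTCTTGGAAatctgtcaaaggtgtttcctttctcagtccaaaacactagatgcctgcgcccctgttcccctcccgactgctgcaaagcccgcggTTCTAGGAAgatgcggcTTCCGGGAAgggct
Klrb1c, chr4:164068129-164068248, plus strand: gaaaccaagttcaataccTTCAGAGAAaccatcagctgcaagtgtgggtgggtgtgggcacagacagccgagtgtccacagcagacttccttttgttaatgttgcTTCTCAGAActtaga
Socs1, chr10:5389344-5389423, plus strand: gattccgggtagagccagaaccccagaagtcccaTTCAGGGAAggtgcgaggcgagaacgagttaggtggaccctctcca
Nfkbia, chr6:78597073-78597202, minus strand: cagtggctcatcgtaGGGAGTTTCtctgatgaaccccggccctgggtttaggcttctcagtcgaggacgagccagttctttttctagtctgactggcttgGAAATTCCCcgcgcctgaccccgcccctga
Nfkbiz, chr11:58251661-58251720, plus strand: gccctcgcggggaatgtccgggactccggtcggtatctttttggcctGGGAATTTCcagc

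The phosphatases that switch off MAP kinases split into opposite directions. Dusp5, a nuclear phosphatase of ERK, gave 9.78 and 9.81 in control and 11.20 and 11.11 in curdlan arrays, a 2.57-fold rise called with each array left out. The other ERK phosphatase genes Dusp7, Dusp6 and Dusp4 rose 1.77-fold, 1.55-fold and 1.4-fold. Dusp1 and Dusp10, whose products act mainly on p38 and JNK, fell 1.99-fold and 1.86-fold. Dusp1 went from 9.03 and 9.20 to 8.12 and 8.13, and Dusp10 from 10.20 and 10.34 to 9.38 and 9.37. Of 20 genes in the list 4 rose and 2 fell, and the median change was -0.034. With 1 array left out, 1 to 2 rises and 0 to 2 falls were called.

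Kinases and pseudokinases under transcriptional control also included genes of both directions. Pim3 and Pim1, survival kinases, rose 1.78-fold and 1.39-fold, and Trib1, a pseudokinase, rose 1.77-fold from 6.30 and 6.49 to 7.25 and 7.19. Its relative Trib2 fell 1.67-fold, from 11.36 and 11.46 to 10.64 and 10.69, so the 3 members of the Tribbles family, with Trib3, did not move together. Hipk2, a nuclear kinase, rose 1.36-fold and Dyrk3, a kinase that dissolves stress granules, fell 1.63-fold. In this list 4 of 23 genes rose and 2 fell, and none of the 6 was called with 1 array left out.

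Of 61 transcription factors beyond the early genes, the largest list, 13 rose and 3 fell, with a median change of 0.122. The share called was 26.2%, against 51.9% of the immediate early genes and 2.13% of all named genes. Csrnp1, a nuclear protein inducible by several growth signals, gave 10.86 and 10.90 in control and 12.30 and 12.28 in curdlan arrays, a 2.66-fold rise. Nab2, which binds EGR factors and represses their targets, rose 2.3-fold from 8.81 and 8.78 to 10.11 and 9.88, beside the early genes Egr2 and Egr3. Smad7, an inhibitor of TGF-beta signalling, rose 2.14-fold from 6.42 and 6.51 to 7.56 and 7.56. Vdr, the vitamin D receptor, rose 1.95-fold from 8.77 and 8.71 to 9.75 and 9.66. Runx3 and Id2, regulators of lymphoid and myeloid development, rose 1.69-fold and 1.54-fold. Gfi1, a haematopoietic repressor, was among the brightest called genes and fell 1.39-fold, from 12.77 and 12.83 to 12.33 and 12.33. Leaving out 1 array left 1 to 3 of the 13 rises and none of the 3 falls.

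Single corepressors and regulators of mRNA were among the raised genes. Tle3, a corepressor of the Groucho family, gave 9.75 and 9.76 in control and 10.71 and 10.75 in curdlan arrays, a 1.97-fold rise called in 5 of the 6 fits with 1 array left out. Zfpm1, a cofactor of GATA factors, rose 1.79-fold, and Arid5b, part of a histone demethylase complex, 1.5-fold. Cpeb4, which binds the ends of mRNAs and controls their translation, rose 2.22-fold from 8.95 and 8.97 to 10.04 and 10.19. Zfp36l2, a relative of tristetraprolin that destabilises cytokine mRNAs, rose 1.52-fold. Most other members of the lists of chromatin regulators, mRNA decay factors and ubiquitin enzymes were not called: 2 of 23 rose in the first, 2 of 19 rose and 1 fell in the second, and 1 of 30 rose and 1 fell in the third. The median change of the chromatin list was -0.016. With 1 array left out, 0 to 1 of the rises were called in each of the first and second lists and none in the third, and no fall was called.

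**Figure D4:**
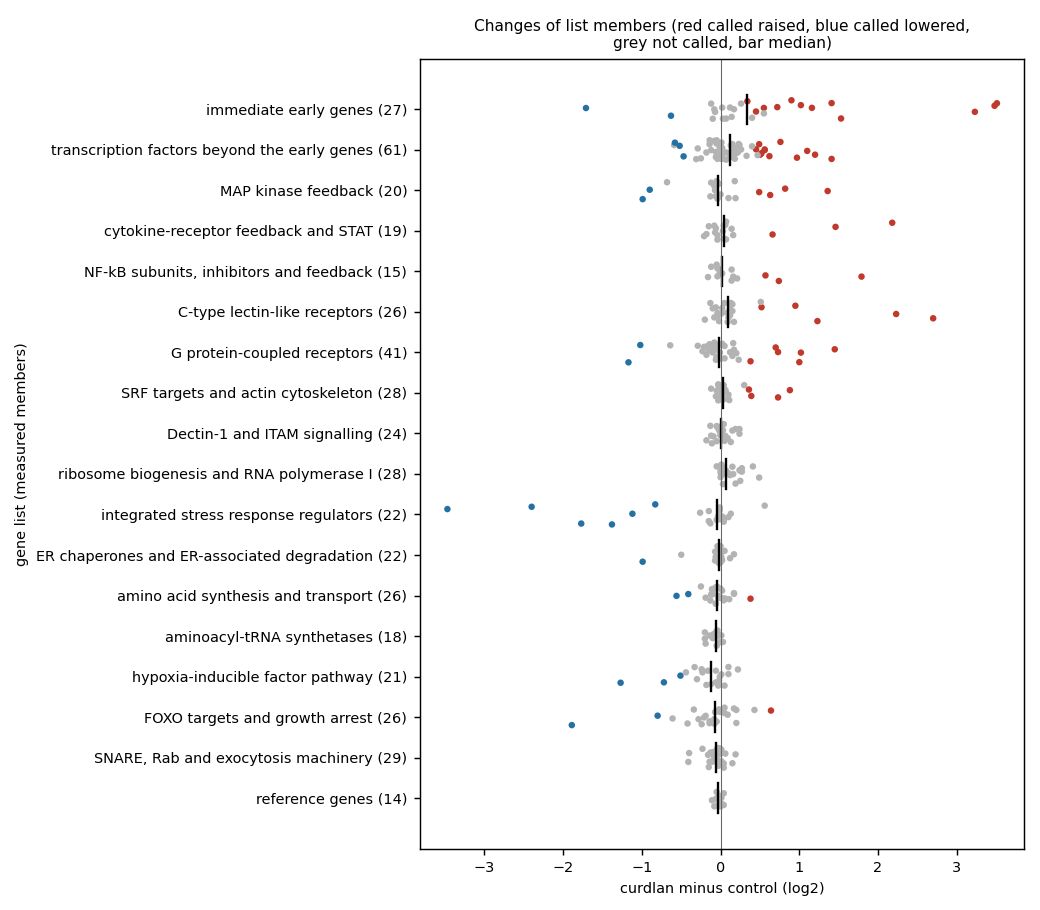
Change with curdlan (log2) of each measured member of 18 gene lists, with red points called raised, blue points called lowered, grey points not called and a black bar at each list's median; the number of measured members follows each name. Early genes reach above 3, stress response regulators reach below -3, and the reference genes cluster at 0.

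In the list of serum response factor targets and actin cytoskeleton, 4 of 28 genes rose and 0 fell. Serum response factor works with cofactors that sense free actin or ERK and binds CArG boxes in early and cytoskeletal genes. Srf itself gave 11.22 and 11.26 in control and 11.93 and 12.01 in curdlan arrays, a 1.65-fold rise. Fhl2, a LIM protein of the cytoskeleton and nucleus, rose 1.84-fold from 10.82 and 10.70 to 11.70 and 11.58. Zyx, the focal adhesion protein zyxin, rose 1.31-fold and Fhl3 1.29-fold. The median change of the list was 0.032, and none of the 4 was called with 1 array left out. Rhob, a small GTPase inducible by growth signals, rose 1.91-fold from 10.01 and 9.91 to 10.87 and 10.92, and Rgs2, a brake on G protein signals, fell 1.34-fold. Prag1, a pseudokinase scaffold of the cytoskeleton, rose 2.09-fold, and Frmd6, a membrane-linked regulator of the Hippo pathway, 2.23-fold. The other probe set of Frmd6 had a change of 0.59 and was not called (adjusted p = 0.0638).

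CArG boxes, searched on both strands, were in 8 of 169 raised promoters (4.73%) and 2 of 87 lowered ones (2.3%), against 1.5% of all promoters. Among genes that rose at least 2-fold, 3 of 25 promoters held one. Srf held 2, and Gpr183, whose rise is given above, held 1. The stretches, from GRCr8 with the box in capitals, are shown because the factor's own gene is among those that rose.
Srf, chr9:21923966-21924045, plus strand: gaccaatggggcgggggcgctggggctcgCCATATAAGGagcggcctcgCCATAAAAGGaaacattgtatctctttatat
Fhl2, chr9:52954591-52954670, minus strand: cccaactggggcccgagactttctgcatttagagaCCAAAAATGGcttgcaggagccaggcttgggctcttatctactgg
Gpr183, chr15:105457147-105457226, minus strand: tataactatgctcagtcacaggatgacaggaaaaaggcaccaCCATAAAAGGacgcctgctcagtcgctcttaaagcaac

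Raised genes that act in transport, lipid and sugar metabolism were also found. Ugcg, which makes glucosylceramide, the base of most glycosphingolipids, gave 11.17 and 11.17 in control and 12.07 and 12.07 in curdlan arrays, a 1.86-fold rise. Chst1, a sulfotransferase of cell-surface sugars, rose 2.34-fold from 9.34 and 9.20 to 10.49 and 10.51. The transporter genes Nipal1 for magnesium, Slco4a1 for organic anions, Slc35e4 of unknown cargo and Slc5a3 for inositol rose 2.4-fold, 2.02-fold, 1.97-fold and 1.86-fold. Ppbp, a chemokine of the CXC family that the chemokine list did not include, rose 1.75-fold from an already high 12.59 and 12.55 to 13.39 and 13.37. Mat2a, which makes the methyl donor S-adenosylmethionine, rose 1.3-fold and its other probe set 1.33-fold. Bmt2, which encodes SAMTOR, a sensor of that metabolite that restrains mTORC1, fell 1.29-fold from 12.56 and 12.63 to 12.24 and 12.22. Trim36, a ubiquitin ligase, Dcun1d3, a neddylation factor, Tlcd1 and Zswim4 rose 1.77-fold to 1.97-fold. Vom2r4 and Or9a4, named as a vomeronasal and an olfactory receptor, rose 2.15-fold and 1.98-fold. They belong to families of near-identical genes, so which transcript was read is uncertain. With 1 array left out, Mat2a, Bmt2, Slc5a3, Trim36, Dcun1d3, Tlcd1, Zswim4 and Vom2r4 were not called. None of the other genes of this paragraph kept the call in all such fits. Vom2r4 was called only narrowly by limma (adjusted p = 0.0497), at a low mean control signal of 5.8.

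**Figure D5:**
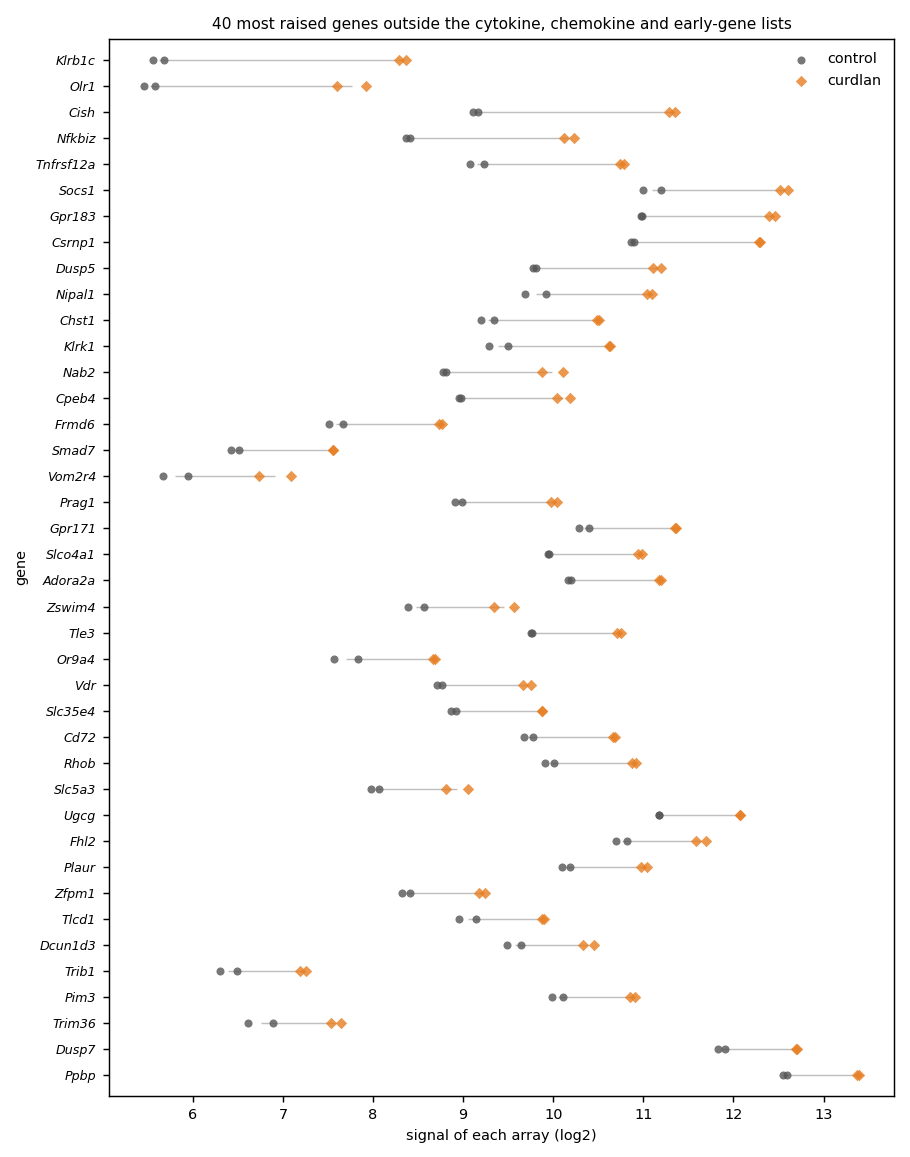
Signal of each array (log2) for the 40 called genes outside the usual lists that rose most, with control arrays as grey circles, curdlan arrays as orange diamonds and a line between the group means. Both curdlan arrays lie above both control arrays in every row, as the choice of genes required. Klrb1c, from 5.56 and 5.68 to 8.29 and 8.36, spans the longest distance.

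Few genes of the mast cell machinery itself were called. Of 22 genes for granule proteases and amine handling, Tph1, from 6.31 and 6.50 to 7.08 and 7.18, rose 1.65-fold. Ndst2, which sulfates heparin in mast cell granules, fell 1.48-fold. None of 17 mast cell receptors and lineage factors was called by limma, with a median change of -0.055, while 2 above 0 and 6 below had an unadjusted p under 0.05. With a robust variance prior that follows the signal level, limma called 2 of them raised and 5 lowered. None of 29 genes for SNARE, Rab and exocytosis machinery was called by limma, with a median of -0.06 and 8 of 29 (27.6%) above 0. In that list 5 genes, all below 0, had an unadjusted p under 0.05, and 3 were called lowered with that prior. Stx3, a syntaxin of granule fusion, had a change of -0.41 ± 0.0592 (adjusted p = 0.0507). Of 18 genes of eicosanoid synthesis, Ptgs1, the cyclooxygenase COX-1, rose 1.42-fold and none fell. Tph1, Ndst2 and Ptgs1 were not called with 1 array left out.

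Most genes of ribosome biogenesis had changes just above 0, without a call. Of 28 genes 25 (89.3%) had a change above 0, against 41.6% of all named genes, with a median of 0.067. By limma 0 were called, and 11, all above 0, had an unadjusted p under 0.05. Rrs1, a ribosome assembly factor, had a change of 0.49 ± 0.0813 (adjusted p = 0.0699), and Taf1d, a subunit of the RNA polymerase I factor, 0.41 ± 0.0759 (adjusted p = 0.089). With a robust variance prior that follows the signal level, 10 of the 28 were called. In the cell cycle lists, Ccne2, a G1 cyclin, and Cdc25a, a phosphatase that activates cyclin-dependent kinases, rose 1.35-fold and 1.25-fold among 26 genes of G1/S. None of 22 genes of G2/M was called by limma, and 2 had an unadjusted p under 0.05; the level-dependent prior called 0 of them. Gadd45b, a stress-inducible regulator of MAP kinases, rose 1.68-fold and Tp53inp1 1.36-fold, from a list of 25 apoptosis and DNA damage regulators. The interferon-regulated list had 1 raised gene of 29 (3.4%), Oasl, at 1.44-fold. In the clock list 1 gene of 13 (7.7%), Tef, was lowered, at 1.42-fold. Over all named genes 2.13% were called. Irf1 and Irf4, interferon regulatory factors counted among the transcription factors, rose 1.43-fold and 1.41-fold. None of the genes called here from the cell cycle, apoptosis, interferon and clock lists was called with 1 array left out. The lists of cholesterol synthesis, polyamine and nucleotide synthesis, adhesion molecules, ion channels, autophagy, NRF2 targets, heat shock and reference genes had 0 members called by limma. At an unadjusted p under 0.05 they held between 0 members, for reference genes, and 6, for adhesion molecules, ion channels and autophagy each, and with the level-dependent prior between 0 and 4 were called.

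Values with R406 before curdlan are given beside these for a few members, chosen after their values were seen. The contrast of R406 plus curdlan minus curdlan shares the curdlan arrays with the response above. Ddit4 gave 10.22 and 10.24 with R406, between the control and curdlan arrays, and Trib3 gave 9.77 and 9.72, also between them. Ccng2 gave 11.51 and 11.48, above both control arrays, and Klrb1c gave 5.62 and 5.45, within or below the control values. Cish gave 7.47 and 7.47 and Dusp5 8.25 and 8.18, below their control arrays. Other genes stayed closer to the curdlan arrays. Trim36 gave 7.59 and 7.56, within the range of its curdlan arrays, and its change with R406 was -0.01 (adjusted p = 0.964). S1pr2 gave 8.71 and 8.74, a change of -0.17 (adjusted p = 0.146), and Zfpm1 gave 8.98 and 9.03, a change of -0.20 (adjusted p = 0.123). Among the lowered genes, Adm gave 9.84 and 9.69 and Banp 9.53 and 9.52, with adjusted p = 0.713 and 0.367. Vegfa gave 10.82 and 10.83, below its curdlan arrays (adjusted p = 0.0318).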

How the data were processed

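Total RNA of RBL-2H3 cells was labelled with biotin and read on rat Affymetrix arrays, per the labels' protocols. The authors deposited a log2 signal for each probe set on each array. Per the submitters' processing notes, the program was Affymetrix Expression Console. The sources used here give no version, background correction, normalization or genome build for it, and the log base was inferred from the range of the values. The array medians nearly coincide, so a change shared by most transcripts would not be seen. No detection call was used.

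All 6 arrays were fitted in 1 model of 3 groups with lmFit and eBayes of limma 3.58.1 in R 4.3.3, which had 3 residual and 2.16 prior degrees of freedom, with no filter. The contrast was curdlan minus control, adjusted by Benjamini-Hochberg over 29214 probe sets. Of these, 15310 had 1 symbol in the platform annotation, 323 several and 13581 none, and named genes were read only from the first kind. A gene with several probe sets, as for 527 of 14506, was read from the brightest one. There were 0 columns of no sample. The number of arrays limits the precision.

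Members and lists were chosen with earlier results of these data known. The 49 lists held 1325 entries, of which 1176 were measured, and are described by counts and medians with no set test. Named were the 40 raised and 30 lowered genes of largest change outside the lists of cytokines, chemokines and early genes. These had to be called, with control and curdlan arrays not overlapping, which held for all 309 called genes. Also named were up to 6 called members of each list, or up to 2 of largest change where fewer than 2 were called. The 6 brightest called genes, 2 unnamed probe sets in each direction, other probe sets of named genes, and Clec7a, Syk and Card9 were added. Of 309 called genes, 256 had a promoter in RefSeq's GRCr8 table. Tested on simulated data of 29214 probe sets, the fit for curdlan minus control recovered 30.3%, 74.6% and 95.5% of changes of 0.5, 1 and 2 log2 units, with 6 false calls. Each size was given to 66 or 67 probe sets. The noise was independent and normal, with each probe set's observed variance and no effect shared by probe sets of an array or culture. The real arrays may differ in this, so these figures are not error rates of the calls reported here. Alternatives were another fit, block, scaling, filter, threshold and probe set rule, and leaving out each array.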

Additional observations from a re-analysis of the deposited data

How the results depend on the processing

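The direction of all 309 called genes was the same in every setting compared, while the counts moved. Apart from quantile normalization and centring, no setting could have reversed it, since both curdlan arrays lay on 1 side of both control arrays. The setting of probe sets above the median signal was left out of this comparison. Against 465 called probe sets (304 higher, 161 lower), 68 (54 and 14) were called with the 4 control and curdlan arrays only. With an adjusted p under 0.01 there were 78 (62 and 16), and with calls of at least 2-fold 68 (54 and 14). More were called among probe sets above the median signal, 1572 (885 and 687), and by eBayes with trend and robust, 1598 (940 and 658). Quantile normalization gave 524 and centring 421. Without 1 array the count ranged from 32, without control 2, to 68, without either R406 array (higher 23 to 54, lower 9 to 14). It was 59 without control 1, 50 without curdlan 1 and 44 without curdlan 2. Between 76 and 100 of the 127 called named genes then lost the call.

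The replicate block gave 102 called probe sets (77 higher, 25 lower), and 61 named genes lost the call. Deviations of same-numbered arrays correlated at -0.115 between control and curdlan, -0.005 between control and R406 and 0.113 between curdlan and R406. Values this small cannot show whether the numbers pair the samples, since pairs without a shared effect would give the same. The crossed pairing of control and curdlan arrays as a block, added after seeing the data, gave 140 (105 and 35).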

Other observations

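Called genes were also set by their place on the chromosomes, as a description with no test. Of 308 called genes with a position in GRCr8, 18 pairs of neighbours among called genes had a gap under 100 kb. Of these pairs, 13 moved in the same direction and 5 in opposite ones. No such counts were made over all genes, so they do not show whether close genes move together more often than others. With 206 raised and 103 lowered genes, many pairs share a direction wherever they lie. Il4 and Il13, Ccl2 and Ccl7, and Osm and Lif, pairs of cytokine or chemokine genes, each rose together. Ddit3 and Inhbe, both stress response genes on chromosome 7, fell together at -1.12 and -1.38 with a gap of 55.0 kb and 4 genes between them. S1pr2 and Icam1, on chromosome 8, rose at 0.73 and 0.57. Dyrk3, on chromosome 13, fell by 0.71 between Mapkapk2, a kinase activated by p38, and Rassf5, a Ras effector, which rose at 0.40 and 0.39. These neighbours were chosen after their values were seen.

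Among called probe sets, 89 raised and 55 lowered ones had no symbol in the annotation used here. Probe set 10716541 gave 6.53 and 6.86 in control and 9.17 and 9.60 in curdlan arrays, a 6.45-fold rise (limma, adjusted p = 0.00875). Probe set 10701643 gave 4.24 and 3.65 against 6.37 and 6.71, with a change of 2.59. In the other direction, probe set 10932891 went from 10.10 and 10.20 to 8.60 and 8.41, and probe set 10894115 from 8.77 and 8.71 to 7.68 and 7.79.

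Other motifs searched in the same promoters were the EGR site, in 4 of 169 raised promoters (2.37%) and 0 of 87 lowered ones against 0.514% of all, and the E-box CACGTG, in 7.1% and 11.5% against 5.79%. The cyclic AMP response element TGACGTCA was in 3.55% and 2.3% against 1.7%. The AP-1 site TGANTCA was in 5.33% and 3.45% against 6.36%, the FOXO site GTAAACA in 1.18% and 2.3% against 3.25%, and the NFAT core GGAAA in 56.2% and 57.5% against 56.7%. Each was searched on both strands, and a match does not show binding. As above, all promoters were not matched to the called genes for signal.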
